A study of Mus musculus with 9 samples.

Results

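The genes described here are the fibroblast growth factor (FGF) ligands and FGF receptors Fgf3, Fgf4, Fgf8, Fgf13, Fgf15, Fgf17, Fgfr1, Fgfr2, Fgfr3 and Fgfr4, chosen by name as a gene family, 10 of the 23453 gene symbols measured. Their transcripts were counted by bulk RNA-seq in 9 libraries of cultured mouse cells, 3 for each of 3 states. EpiLCs (epiblast-like cells) were made from naive embryonic stem cells (ESCs) in 48 h of culture in N2B27 with 1% KSR, a serum replacement, FGF2 and ActivinA. The aEpiLCs (anterior) came from EpiLCs after a further 24 h in basal N2B27, and the pEpiLCs (posterior) after a further 24 h with Activin and CHIR99021, an agonist of Wnt/β-catenin signalling. The study's methods give KSR in both later media and FGF2 in neither, so the EpiLC libraries are the only ones whose medium held an added FGF. The study calls the aEpiLCs and pEpiLCs that it compared by RNA-seq wild-type, and no genetic change is named for these cells. Neither a cell line nor separate cultures are stated for the replicates, so the p-values below measure the spread between libraries only.

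FGFs are secreted proteins that bind receptor tyrosine kinases at the cell surface together with heparan sulfate, and the receptors signal through adaptor proteins and the kinase ERK. In the mouse embryo, FGF4 made by the epiblast signals to neighbouring cells before and after implantation, and FGF8 made in the primitive streak is required for cells to leave it during gastrulation. FGFR1 and FGFR2 are the main receptors of the early embryo, with FGFR1 prominent in the epiblast.

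Total counts were between 20560564 and 23417917 per library, and 3 counts, taken as the detection limit, were worth between 0.130 and 0.143 CPM (read counts relative to the depth of the library, with TMM factors from edgeR). All 5 epiblast markers were detected in every library, but their sum was 1777 to 2962 CPM in pEpiLCs and 3793 to 4362 CPM in the other states. Dnmt3b held most of this difference, with means of 2700, 2517 and 1245 CPM in EpiLCs, aEpiLCs and pEpiLCs. Of the other markers, Fgf5 went the other way, with 85.4, 115 and 168 CPM, and Pou5f1 had 1129, 935 and 955 CPM. Dnmt3b, Otx2 and Pou3f1 were called lower in pEpiLCs than in aEpiLCs, of which Pou3f1 alone was also called without pEpiLC replicate 1. The part of this shift in the results on pEpiLCs was not tested. The summed level of 5 posterior epiblast and streak markers was 483 to 2321 CPM in pEpiLCs and at most 7.33 CPM in the other states. The library pEpiLC replicate 1 stood apart, with 323 and 333 of 15797 genes more than 4-fold from replicates 2 and 3, against 57 to 76 in the other pairs of replicates within a state. That library held the highest posterior marker sum (2321 CPM), the lowest epiblast marker sum (1777 CPM against 2672 and 2962) and 12.4 CPM of Gata4, an endoderm and heart transcription factor, where every other library had at most 0.506 CPM. Of 8 extraembryonic endoderm markers, 6 were in the table, Gata4 among them, and their sum was 15.9 CPM in that library and 2.48 to 5.61 CPM elsewhere. Without Gata4 the sum was 3.53 CPM there and 2.04 to 5.24 CPM elsewhere, with Apoa1 and Sox7 at 0 in that library. For the 10 genes, and for the pathway lists named below, calls that turn on this library are therefore also given without it. In bulk RNA, fewer cells that express a gene and less RNA per cell cannot be told apart.

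Fgf4 (ENSMUSG00000050917.5, GRCm38 chromosome 7 from 144847367 to 144865243) is known for a composite element in its 3′ untranslated region at which SOX2 and OCT4 bind side by side, and it is shown because Fgf4 had the highest CPM of the ligand genes described here in EpiLCs. It was found by its letters at chr7:144864388-144864417 on the plus strand of GRCm38, in exon 3 of 3, 1449 bp after the end of the coding sequence. The capitals mark the SOX-type site CTTTGTT and the octamer-type site ATGCTAA, with 3 bases between them. Searched on both strands, the pair at this spacing was present in the transcripts of 2 of 55450 genes.
Fgf4 element: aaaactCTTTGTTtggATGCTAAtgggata

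Fgf8 (ENSMUSG00000025219.13, chromosome 19 from 45736798 to 45742915) and Fgf17 (ENSMUSG00000022101.6, chromosome 14 from 70636203 to 70642268) belong to the same subfamily of FGFs. The longest run of identical bases between their transcripts was 20 bases, and the longest between any pair of the 10 genes was 26 bases, for Fgfr1 and Fgfr3. The reads were 150 bp long. No window of 50 bases of Fgf3, Fgf4, Fgf8, Fgf17 or Fgfr4 occurred in the transcripts of another gene. For Fgf15 this share was 21.3% of windows, over 7 other genes, and 761 bp of its exons overlap the antisense gene Gm26793. It was 11.6% for Fgfr3, 2.47% for Fgfr2, 1.49% for Fgfr1 and 0.747% for Fgf13. Whether the libraries kept strand is not stated in the sources used here, so reads of Fgf15 and Gm26793 cannot be told apart with certainty.

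Of the 10 genes, all passed the filter on low counts in each comparison. To be called, a gene needed an adjusted p (Benjamini-Hochberg, over all genes tested) below 0.05 in edgeR's quasi-likelihood test and a log2 fold change (log2FC) of 1 or more in size. Between pEpiLCs and aEpiLCs, 4 of the 10 were called, against 7.29% of all genes tested. Fgf8 and Fgf17 were higher in pEpiLCs (2 genes, against 2.55% of all genes) and Fgf4 and Fgfr2 lower (2 genes, against 4.74%). Between pEpiLCs and EpiLCs, 5 were called, against 15.8% of all genes, with 2 higher (7.71%) and 3 lower (8.13%) in pEpiLCs. Between aEpiLCs and EpiLCs, 6 were called, against 12.5% of all genes, with 1 higher (7.25%) and 5 lower (5.24%) in aEpiLCs. Without the fold limit, 4, 8 and 8 of the 10 genes passed in the 3 comparisons in this order, against 15.6%, 44.2% and 46.6% of all genes. The libraries of the states did not overlap for 4, 8 and 9 of the 10 genes in the same order, against 38.7%, 58.7% and 56.3% of all genes. The comparisons share libraries, so their counts are not independent.

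**Figure D1:**
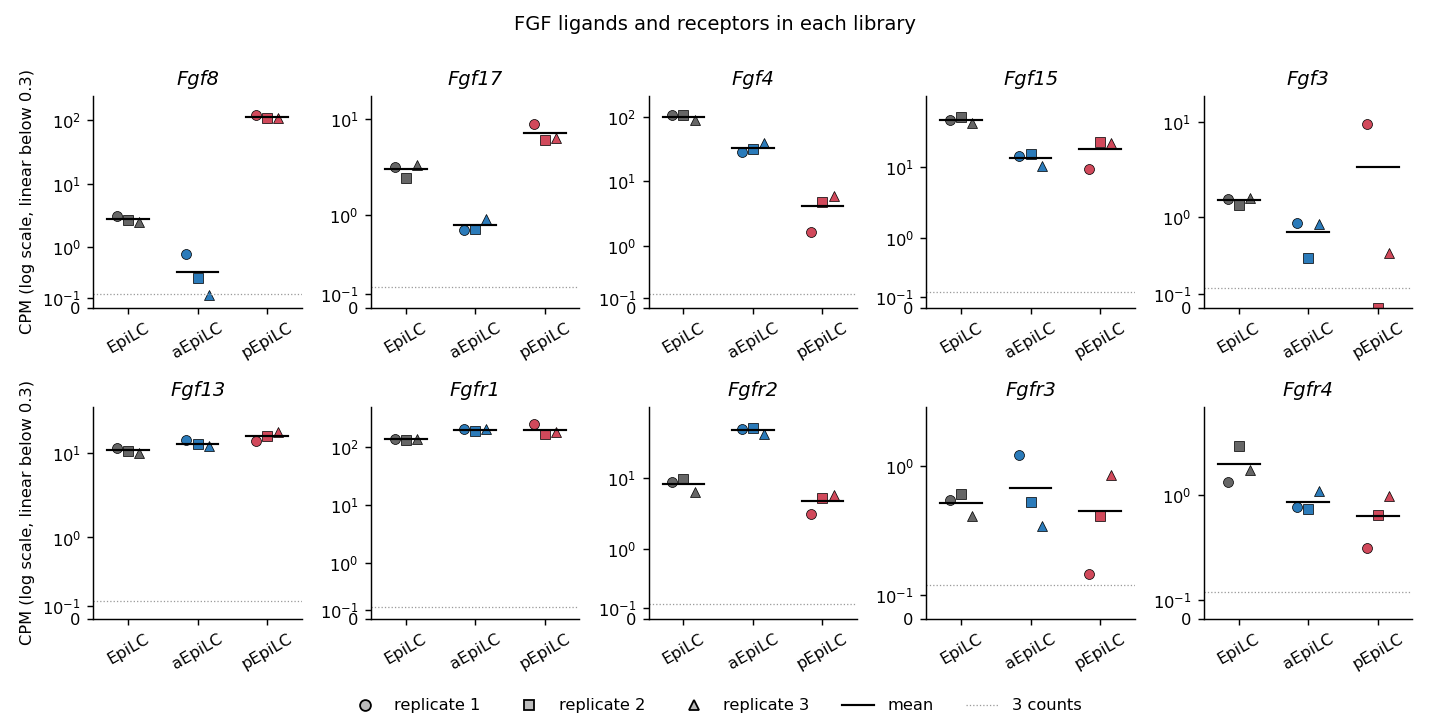
Level of each gene in each library, as CPM on a logarithmic axis that is linear below 0.3, with 1 symbol per replicate, a bar at the mean of 3 libraries and a dotted line at the highest CPM that 3 counts are worth. Fgf8 lay at 109 to 124 CPM in pEpiLCs and below 3.1 CPM elsewhere, Fgf4 fell in every state after EpiLC, and Fgfr2 was highest in aEpiLCs.

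Fgf8 was the most changed of the ligands. It had 3.08, 2.69 and 2.42 CPM in EpiLC replicates 1, 2 and 3. In aEpiLCs the libraries had 0.751, 0.315 and 0.138 CPM, the last being 3 counts, the detection limit. In pEpiLCs they had 124, 109 and 110 CPM. The states did not overlap, and the pEpiLC libraries lay close together. Fgf8 was higher in pEpiLCs than in aEpiLCs by a log2FC of 8.14 (SE 0.295, edgeR adjusted p = 1.58e-05), and than in EpiLCs by 5.41 (SE 0.113, adjusted p = 1.25e-06). It was lower in aEpiLCs than in EpiLCs, with a log2FC of -2.75 (SE 0.403, adjusted p = 0.000102). Leaving out aEpiLC replicate 1, the highest of its state, moved the fitted difference between pEpiLCs and aEpiLCs to 8.93 and that between aEpiLCs and EpiLCs to -3.54. Without pEpiLC replicate 1, the library that stood apart, the first was 8.08.

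Fgf17, the near relative of Fgf8, followed the same order of states at a lower level. It had 3.22, 2.45 and 3.34 CPM in EpiLCs, 0.704, 0.720 and 0.920 CPM in aEpiLCs and 8.88, 6.13 and 6.44 CPM in pEpiLCs. No library of a state overlapped with another state. The log2FC was 3.18 (SE 0.247, edgeR adjusted p = 0.000334) for pEpiLCs against aEpiLCs, 1.27 (SE 0.217, adjusted p = 0.00323) for pEpiLCs against EpiLCs and -1.93 (SE 0.267, adjusted p = 6.08e-05) for aEpiLCs against EpiLCs. Without pEpiLC replicate 1 the first pair of values was 3.00 and 1.09, both called. Per kilobase of exon, Fgf8 had 84.5 ± 6.18 CPM per kb in pEpiLCs and Fgf17 4.23 ± 0.891 (SD, n = 3).

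Fgf4, whose 3′ element is printed above, was the ligand of this group that fell furthest in pEpiLCs, whereas in aEpiLCs Fgf8, Fgf17 and Fgf15 had lower log2FC values. It had 106, 108 and 88.6 CPM in EpiLCs, 28.3, 32.2 and 40.03 CPM in aEpiLCs and 1.62, 4.83 and 5.93 CPM in pEpiLCs. The states did not overlap, and pEpiLC replicate 1 was the lowest of all libraries. The log2FC was -1.59 (SE 0.111, edgeR adjusted p = 1.46e-07) in aEpiLCs and -4.58 (SE 0.359, adjusted p = 0.000157) in pEpiLCs against EpiLCs. Between pEpiLCs and aEpiLCs it was -3.02 (SE 0.391, adjusted p = 0.00300), and -2.63 without pEpiLC replicate 1. Sox2, which encodes a partner at the element, had 55.2, 65.7 and 61.0 CPM in EpiLCs, 98.5, 101 and 105 CPM in aEpiLCs and 11.6, 34.5 and 24.4 CPM in pEpiLCs. Pou5f1, which encodes OCT4, had 1128, 1119 and 1139 CPM in EpiLCs, 879, 966 and 960 CPM in aEpiLCs and 790, 1068 and 1006 CPM in pEpiLCs. In aEpiLCs, every library was below the EpiLC libraries for Fgf4 and Pou5f1 and above them for Sox2. In pEpiLCs, every library was below the EpiLC libraries for all 3 genes. The libraries did not overlap for 56.3% of all genes in aEpiLCs and 58.7% in pEpiLCs, each against EpiLCs. Sox2 was called lower in pEpiLCs than in EpiLCs (-1.34, edgeR adjusted p = 0.0133) and was not called in aEpiLCs against EpiLCs. Pou5f1 was called in neither comparison with EpiLCs. The part of Sox2 and Pou5f1 in the result for Fgf4 was not tested. The summed level of 8 naive ESC markers was also higher in EpiLCs (37.2 to 40.8 CPM) than in both later states. It was 20.2 to 22.1 CPM in aEpiLCs and 24.1 to 28.0 CPM in pEpiLCs. Zfp42 alone had means of 19.1, 7.61 and 11.2 CPM in EpiLCs, aEpiLCs and pEpiLCs. Against EpiLCs, 4 of the markers were called lower and 1, Klf2, higher in aEpiLCs (5.24% and 7.25% of all genes). In pEpiLCs, 2 were called lower and 0 higher (8.13% and 7.71%), and Esrrb rose from 4.08 to 5.46 CPM without a call. The part of the naive markers in the result for Fgf4 was not tested.

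Fgf15, the mouse counterpart of human FGF19, had 43.97, 48.7 and 40.3 CPM in EpiLCs. Its level was 14.1, 15.1 and 10.2 CPM in aEpiLCs and 9.26, 21.7 and 21.2 CPM in pEpiLCs, so both later states lay below every EpiLC library but overlapped with each other. It fell in aEpiLCs by a log2FC of -1.75 (SE 0.125, edgeR adjusted p = 1.69e-07) and in pEpiLCs by -1.33 (SE 0.285, adjusted p = 0.00818). The difference between pEpiLCs and aEpiLCs was 0.40 (SE 0.315, adjusted p = 0.430), with a 95% confidence interval from -0.33 to 1.13, and 0.71 (adjusted p = 0.00556, below the fold limit) without pEpiLC replicate 1. The antisense gene Gm26793, which shares 24.9% of the exon bases of Fgf15, had 99.96 to 105 expected counts in EpiLCs, 28.3 to 59.9 in aEpiLCs and 25.0 to 53.7 in pEpiLCs. Its part in the result was not tested.

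Fgf3 had 1.54, 1.32 and 1.58 CPM in EpiLCs and 0.845, 0.360 and 0.828 CPM in aEpiLCs. In pEpiLCs it had 9.59 CPM in replicate 1, 0 in replicate 2 and 0.414 CPM in replicate 3, where a count of 0 allows up to 0.130 CPM. The pEpiLC mean thus rested on replicate 1, which was 46.4 times the mean of the other pair. The difference from aEpiLCs was 2.29 (SE 1.43, edgeR adjusted p = 0.320) on the log2 scale, and -1.70 (adjusted p = 0.172) without that library. Against EpiLCs it was 1.18 (SE 1.296, adjusted p = 0.488), and -2.81 (adjusted p = 0.00205), a call, without that library. Fgf3 was lower in aEpiLCs than in EpiLCs, with a log2FC of -1.12 (SE 0.351, adjusted p = 0.0181). Fgf3 no longer passed when aEpiLC replicate 2 was left out (-0.82, adjusted p = 0.0782), nor without EpiLC replicate 1 (adjusted p = 0.0533) or EpiLC replicate 3 (adjusted p = 0.0618).

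Fgf13 encodes an FGF homologous factor, which stays in the cell and binds sodium channels and microtubules rather than FGF receptors. It varied least of the ligand genes, with 11.6, 10.7 and 10.2 CPM in EpiLCs, 14.2, 12.9 and 12.1 CPM in aEpiLCs and 14.0, 16.2 and 17.8 CPM in pEpiLCs. Its log2FC against EpiLCs was 0.59 in pEpiLCs (edgeR adjusted p = 0.00883) and 0.27 in aEpiLCs (adjusted p = 0.0713), neither of which reached the fold limit. The gene lies on chromosome X from 59062145 to 59568071.

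**Figure D2:**
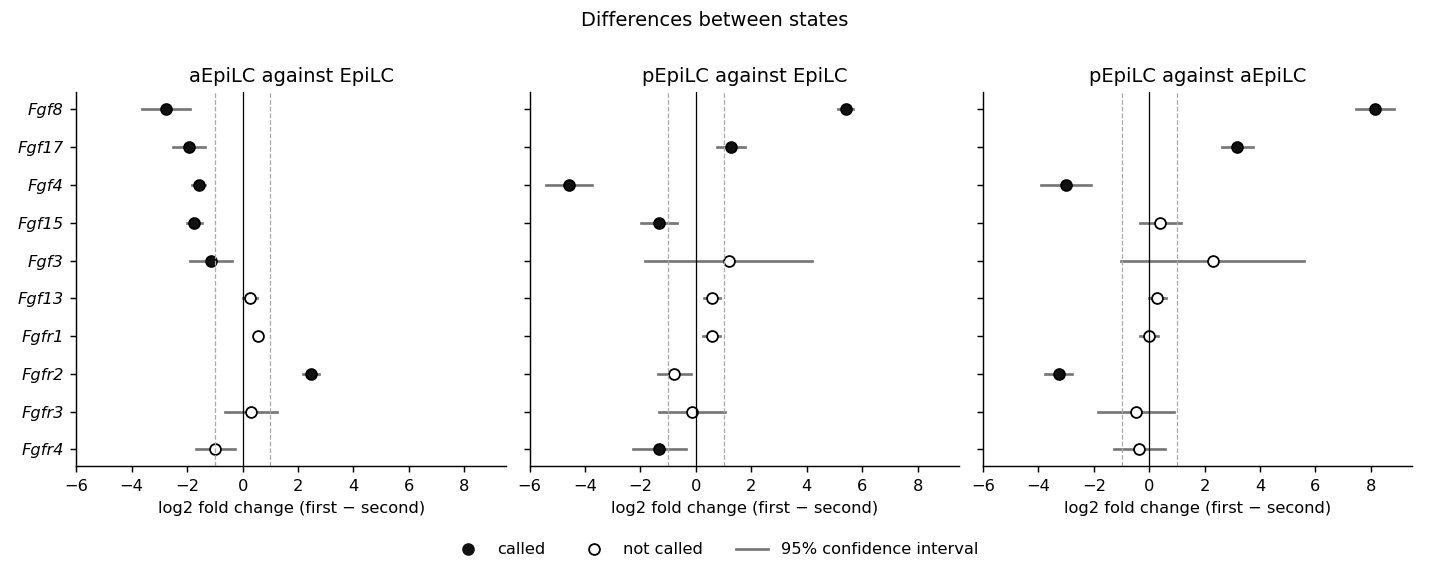
Log2 fold change of each gene in each comparison (first state minus second), with 95% confidence intervals. Filled points were called and open points were not, and dashed lines mark the fold limit. The widest intervals are those of Fgf3 in the comparisons with pEpiLCs.

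Fgf3, Fgf4 and Fgf15 lie next to each other on chromosome 7 within 62.87 kb, on the same strand. The gaps are 2.931 kb between Fgf3 and Fgf4 as annotated genes and 31.288 kb between Fgf4 and Fgf15. The Fgf4 transcript that holds the printed element starts further on, 16.949 kb after the end of Fgf3. All 3 were called lower in aEpiLCs than in EpiLCs, with log2FC values of -1.12, -1.59 and -1.75. In pEpiLCs the fitted log2FC values against EpiLCs were 1.18, -4.58 and -1.33, and without pEpiLC replicate 1 they were -2.81, -4.20 and -1.02, all called. Fgf4 and Fgf15 thus differed in the size of their change in pEpiLCs, although whether that difference exceeds the error was not tested.

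**Figure D3:**
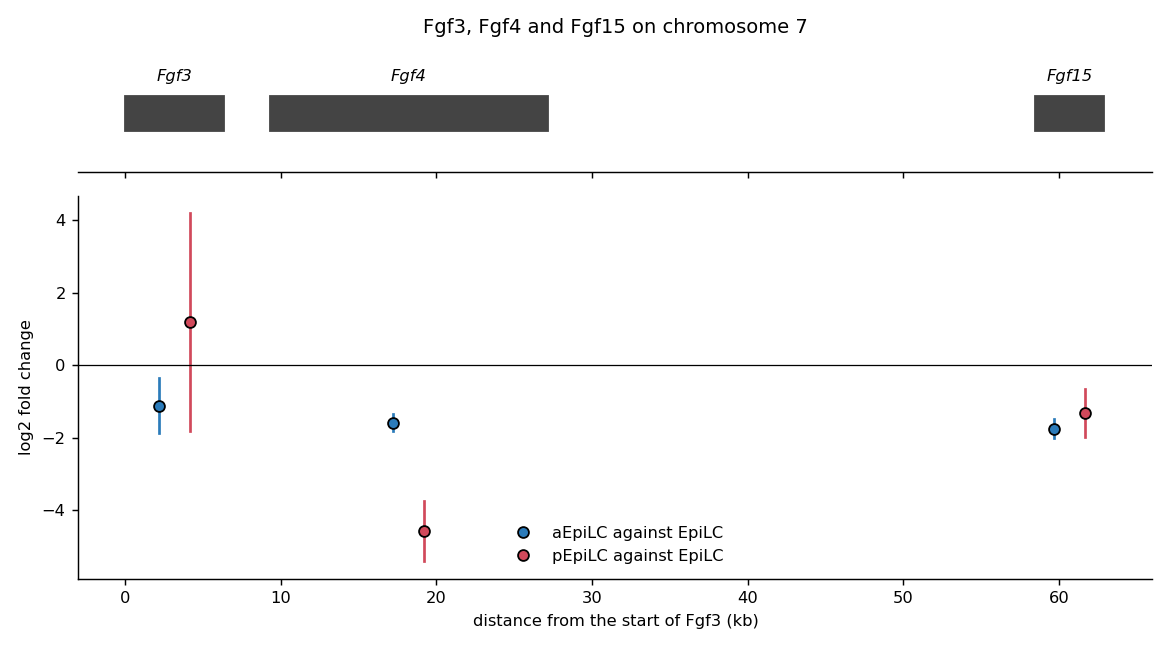
Upper panel, the 3 neighbouring FGF genes on chromosome 7, drawn to scale as distance from the start of Fgf3 in kb. Lower panel, their log2FC against EpiLCs with 95% confidence intervals, in aEpiLCs (blue) and pEpiLCs (red), where Fgf4 in pEpiLCs is lowest at -4.58.

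Of the receptors, Fgfr1 had the highest CPM in every library. It had 137, 134 and 140 CPM in EpiLCs, 205, 188 and 205 CPM in aEpiLCs and 249, 169 and 180 CPM in pEpiLCs. Every library of the later states lay above every EpiLC library. The log2FC against EpiLCs was 0.55 in aEpiLCs (SE 0.0591, edgeR adjusted p = 7.41e-06) and 0.57 in pEpiLCs (SE 0.137, adjusted p = 0.0133), both below the fold limit. Without pEpiLC replicate 1, the library with the highest level, the latter was 0.38. Between pEpiLCs and aEpiLCs the difference was below 0.01 in size (adjusted p = 0.999), with a 95% confidence interval from -0.33 to 0.33. Fgfr1 (ENSMUSG00000031565.18) lies on chromosome 8 from 25513654 to 25575718.

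Fgfr2 was the receptor that changed most in the comparisons with aEpiLCs, and Fgfr4 in that of pEpiLCs with EpiLCs. It had 8.68, 9.58 and 6.33 CPM in EpiLCs, 47.4, 48.3 and 40.2 CPM in aEpiLCs and 3.15, 5.22 and 5.70 CPM in pEpiLCs. The states did not overlap. It was higher in aEpiLCs than in EpiLCs by a log2FC of 2.47 (SE 0.131, edgeR adjusted p = 1.30e-08), the largest rise of the 10 genes in that comparison and the only call in that direction. Between pEpiLCs and aEpiLCs the log2FC was -3.27 (SE 0.211, adjusted p = 0.000165), and -3.05 without pEpiLC replicate 1. Between pEpiLCs and EpiLCs it was -0.78 (SE 0.258, adjusted p = 0.0416), below the fold limit, and -0.56 without that library. Fgfr2 (ENSMUSG00000030849.18) lies on chromosome 7 and shares 314 bp of exon, 3.04% of its exon bases, with Ctbp2 on the same strand. Ctbp2 had 7476 to 7922 expected counts in EpiLCs, 8048 to 8991 in aEpiLCs and 4102 to 6185 in pEpiLCs, and its part in the result for Fgfr2 was not tested.

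Fgfr3 and Fgfr4 were near the low end of what these libraries measured. Fgfr3 had 0.607, 0.660 and 0.484 CPM in EpiLCs, 1.17, 0.585 and 0.414 CPM in aEpiLCs and 0.191, 0.478 and 0.874 CPM in pEpiLCs. The states overlapped and no difference was called, with adjusted p between 0.585 and 0.832 in edgeR's test. Fgfr4 had 1.26, 2.41 and 1.54 CPM in EpiLCs, 0.798, 0.765 and 1.06 CPM in aEpiLCs and 0.382, 0.696 and 0.966 CPM in pEpiLCs. Both later states lay below every EpiLC library. The log2FC against EpiLCs was -1.31 in pEpiLCs (SE 0.409, adjusted p = 0.0333) and -0.98 in aEpiLCs (SE 0.331, adjusted p = 0.0267), of which the first was called. It was -1.03, still a call, without pEpiLC replicate 1. The call was lost without pEpiLC replicate 2 (adjusted p = 0.0764), EpiLC replicate 2 (0.128) or EpiLC replicate 3 (0.0741). The value in aEpiLCs passed the fold limit, and was called, without aEpiLC replicate 3 (-1.14) or EpiLC replicate 1 (-1.16) or 3 (-1.06).

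Scaling CPM by exon length, here all annotated exons of a gene merged, gives levels that can be compared between genes only roughly. The merged length and the longest transcript were 3195 and 3030 bp for Fgf4, 3058 and 1810 bp for Fgf15, and 10328 and 4429 bp for Fgfr2. The ligand shares depend on this choice and were not computed with the longest transcript. The 5 secreted ligands Fgf3, Fgf4, Fgf8, Fgf15 and Fgf17 summed to 50.5 ± 4.48 CPM per kb in EpiLCs, 15.8 ± 1.03 in aEpiLCs and 97.1 ± 6.44 in pEpiLCs (SD, n = 3). Fgf4 made up 62.4% ± 1.15 of this sum in EpiLCs and 65.9% ± 7.46 in aEpiLCs, but 1.36% ± 0.779 in pEpiLCs (SD, n = 3). Fgf8 made up 4.005% ± 0.328 in EpiLCs, 1.95% ± 1.63 in aEpiLCs and 87.0% ± 0.627 in pEpiLCs. Fgf15 held most of the remainder in the first pair of states, with 28.7% ± 1.13 in EpiLCs and 27.4% ± 6.55 in aEpiLCs, and 5.97% ± 2.66 in pEpiLCs. Of these 5 genes, the largest share was that of Fgf4 in each EpiLC and aEpiLC library and that of Fgf8 in each pEpiLC library. The sum leaves out Fgf5, a secreted ligand outside the 10 genes, which had 34.2 ± 2.80, 46.0 ± 4.06 and 67.2 ± 3.88 CPM per kb in EpiLCs, aEpiLCs and pEpiLCs (SD, n = 3). With Fgf5 added, the sums were 84.6 ± 3.94, 61.8 ± 3.30 and 164 ± 6.80 CPM per kb, so that the aEpiLC sum was nearer to that of EpiLCs. Fgf5 then held 40.4%, 74.3% and 40.9% of the sum, and its level per kb exceeded that of Fgf4 in 2 of 3 EpiLC libraries and in all 3 aEpiLC libraries, whereas Fgf8 remained the largest in all 3 pEpiLC libraries.

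Of the receptors, Fgfr1 held 91.0% ± 1.97 of the summed CPM per kb of Fgfr1 to Fgfr4 in EpiLCs, 81.0% ± 1.87 in aEpiLCs and 96.4% ± 1.70 in pEpiLCs (SD, n = 3). The share in pEpiLCs was 15.3 percentage points above that in aEpiLCs and 5.32 above that in EpiLCs, and that in aEpiLCs was lower than in EpiLCs, with a difference of -10.0 points. The libraries of the states did not overlap in any of the 3 comparisons, and the exact permutation test, 2-sided with n = 3 against 3, gave p = 0.1 each time, the smallest that this design allows. Fgfr2 held 5.21% ± 1.07 in EpiLCs, 17.6% ± 1.95 in aEpiLCs and 2.30% ± 0.960 in pEpiLCs.

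**Figure D4:**
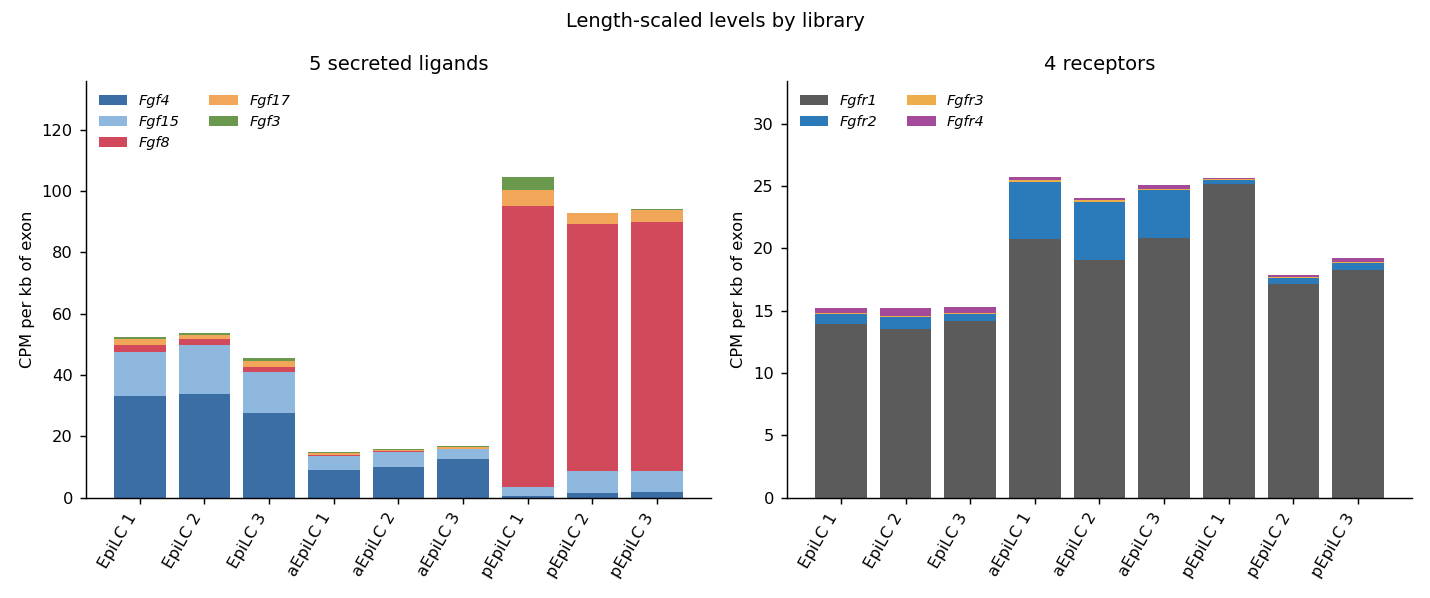
CPM per kb of exon in each library, stacked by gene, for 5 secreted ligands (left) and 4 receptors (right), with axes from 0. The ligand sum is mostly Fgf4 and Fgf15 in EpiLCs and aEpiLCs and mostly Fgf8 in pEpiLCs, and the receptor sum is mostly Fgfr1, with Fgfr2 visible in aEpiLCs.

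The other genes of the pathway were taken from lists, whose counts of calls stand against the shares of all genes called, 7.29%, 15.8% and 12.5% in the 3 comparisons. Counts at an unadjusted p below 0.05 stand against shares of at least 15.6%, 44.2% and 46.6%, which passed even after adjustment. Of 16 other FGF ligands, 15 were in the table and 5, 4 and 5 were tested for pEpiLCs against aEpiLCs, pEpiLCs against EpiLCs and aEpiLCs against EpiLCs. The most abundant was Fgf5, a marker of the post-implantation epiblast, with 90.5, 77.4 and 88.3 CPM in EpiLCs, 127, 108 and 110 CPM in aEpiLCs and 167, 178 and 159 CPM in pEpiLCs. It was called higher in pEpiLCs than in EpiLCs by a log2FC of 1.00, at the fold limit (SE 0.0769, edgeR adjusted p = 0.000151), and it was not called by DESeq2. Against EpiLCs, 1 gene of this list was called higher and 2 lower in each later state. Fgf11, another FGF homologous factor, was lower in both later states than in EpiLCs, with log2FC values of -1.37 in pEpiLCs (adjusted p = 0.00249) and -1.15 in aEpiLCs (adjusted p = 0.000111). Fgf21 was also called lower in both, at low means of 0.961, 0.229 and 0.0742 CPM in EpiLCs, aEpiLCs and pEpiLCs. Fgf14, a further FGF homologous factor, was higher in aEpiLCs, at 4.93, 5.76 and 4.33 CPM, than in EpiLCs, at 1.59, 2.08 and 2.02 CPM (1.40, adjusted p = 9.72e-05). In pEpiLCs it had 1.43, 4.13 and 4.09 CPM and did not pass the test against EpiLCs (0.79, adjusted p = 0.144). Between pEpiLCs and aEpiLCs, 0 genes of this list were called by edgeR's quasi-likelihood or likelihood ratio test or by DESeq2, and 1 had an unadjusted p below 0.05. Without pEpiLC replicate 1, calls were added for 2 low genes of the list in pEpiLCs. Fgf22, at most 0.565 CPM, was called against aEpiLCs (2.41, adjusted p = 0.0428) and EpiLCs (adjusted p = 0.0384), and Fgf14 against EpiLCs (1.14, adjusted p = 0.000550).

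Of 17 FGF co-receptors and binding proteins, 15 were tested. Between pEpiLCs and aEpiLCs, 2 were higher and 3 lower, and the median log2FC of the list was 0.24 against 0.01 for all genes tested. Il17rd, which encodes the FGF antagonist SEF, was higher in pEpiLCs by 1.92 (276 against 73.0 CPM, edgeR adjusted p = 0.000832), and the glypican Gpc6 by 1.07 (adjusted p = 0.0446). Gpc6 had 20.8 CPM in pEpiLC replicate 1 and 11.6 and 10.9 CPM in replicates 2 and 3, and without replicate 1 its log2FC was 0.71, no longer a call. Fgfbp3 was then called lower (-1.75, adjusted p = 0.000836), which made 1 gene higher and 4 lower. Fgfbp1, whose product carries FGFs away from the matrix, was lower in pEpiLCs with -2.11 (8.57 against 37.0 CPM, adjusted p = 0.0183). The heparan sulfate proteoglycans Gpc4 and Sdc4 were also lower, with -1.49 (adjusted p = 0.000334) and -1.34 (adjusted p = 0.0117). Against EpiLCs, 3 genes of the list were higher and 0 lower in each later state by edgeR's quasi-likelihood test, where 1 gene in each had a lower level at an unadjusted p below 0.05. The likelihood ratio test and DESeq2 also called 0 lower. Of all genes, 8.13% were called lower in pEpiLCs and 5.24% in aEpiLCs, so for 15 genes a count of 0 is near the background. Without pEpiLC replicate 1, 1 gene was lower in pEpiLCs, Kl, which encodes the co-receptor Klotho and had at most 0.944 CPM (-1.82, adjusted p = 0.0279). The genes called higher with all libraries were Fgfbp1, Il17rd and Gpc6 in pEpiLCs (list median 0.56, all genes 0.02), where Il17rd had a log2FC of 2.34 and Gpc6 of 1.80. In aEpiLCs, Fgfbp1, Sdc3 and Gpc4 were higher (list median 0.59, all genes 0.002), where Fgfbp1 had 3.64 (adjusted p = 1.06e-09).

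Of 11 heparan sulfate enzymes, all tested, the 6-O-sulfotransferase genes Hs6st1 and Hs6st2 changed in opposite directions in pEpiLCs against both other states. Hs6st2 was higher in pEpiLCs than in aEpiLCs by a log2FC of 2.01 (61.8 against 15.4 CPM, edgeR adjusted p = 0.000157) and than in EpiLCs by 2.63 (adjusted p = 3.91e-05). Hs6st1 was lower in pEpiLCs than in aEpiLCs with -1.66 (26.01 against 82.0 CPM, adjusted p = 0.00104) and than in EpiLCs with -1.28 (adjusted p = 0.00107). Sulf1 and Sulf2, which encode the endosulfatases that take 6-O-sulfates off again, were also called higher in pEpiLCs than in EpiLCs, by 1.11 (adjusted p = 0.000227) and 1.03 (adjusted p = 0.000271), of which Sulf2 fell below the fold limit, at 0.93, without pEpiLC replicate 1. Their means in EpiLCs, aEpiLCs and pEpiLCs were 87.2, 139 and 186 CPM for Sulf1 and 98.8, 184 and 199 CPM for Sulf2. Neither was called between pEpiLCs and aEpiLCs. Between aEpiLCs and EpiLCs, 0 genes of this list were called by edgeR's quasi-likelihood or likelihood ratio test or by DESeq2, although 8 were higher at an unadjusted p below 0.05. Of all genes, at least 46.6% had such a p there, in either direction. The medians of the list were 0.33, 0.72 and 0.38 for pEpiLCs against aEpiLCs, pEpiLCs against EpiLCs and aEpiLCs against EpiLCs.

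Inside the cell, the signal is passed on by a relay of adaptors and kinases. Of 18 genes of the relay, from Frs2 to Mapk3, 0 were called between pEpiLCs and aEpiLCs by edgeR's quasi-likelihood or likelihood ratio test or by DESeq2, and 2 had an unadjusted p below 0.05. The docking protein gene Gab1 was lower than in EpiLCs (261 CPM) in both pEpiLCs (85.6 CPM, log2FC -1.59, edgeR adjusted p = 0.000209) and aEpiLCs (96.1 CPM, -1.44, adjusted p = 2.53e-07). The medians of the relay were 0.06, -0.16 and -0.12 in the order above. Of 14 genes of the ERK response and its feedback, the phosphatase gene Dusp4 was lower in pEpiLCs than in aEpiLCs (34.1 against 79.2 CPM, -1.22, adjusted p = 0.00253). The feedback inhibitors Spred1 and Spry2 were higher in pEpiLCs than in EpiLCs, by 1.17 (adjusted p = 0.000408) and 1.06 (adjusted p = 0.00196). Both also rose in aEpiLCs below the fold limit. The means in EpiLCs, aEpiLCs and pEpiLCs were 62.9, 87.9 and 139 CPM for Spred1 and 18.7, 35.2 and 38.6 CPM for Spry2. Neither was called between pEpiLCs and aEpiLCs. Ier3, an immediate early gene with at most 4.503 CPM, was called lower in pEpiLCs than in aEpiLCs (-1.90, adjusted p = 0.0270) and EpiLCs (-1.54, adjusted p = 0.0104). Without pEpiLC replicate 1, Phlda1 was also called lower in pEpiLCs than in aEpiLCs (-1.63, adjusted p = 0.00337). Between aEpiLCs and EpiLCs, 0 genes of this list were called by any of the 3 tests, and 9 had an unadjusted p below 0.05 in the quasi-likelihood test. At least 46.6% of all genes had such a p there. The medians of the ERK list were 0.07, 0.12 and 0.13.

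**Figure D5:**
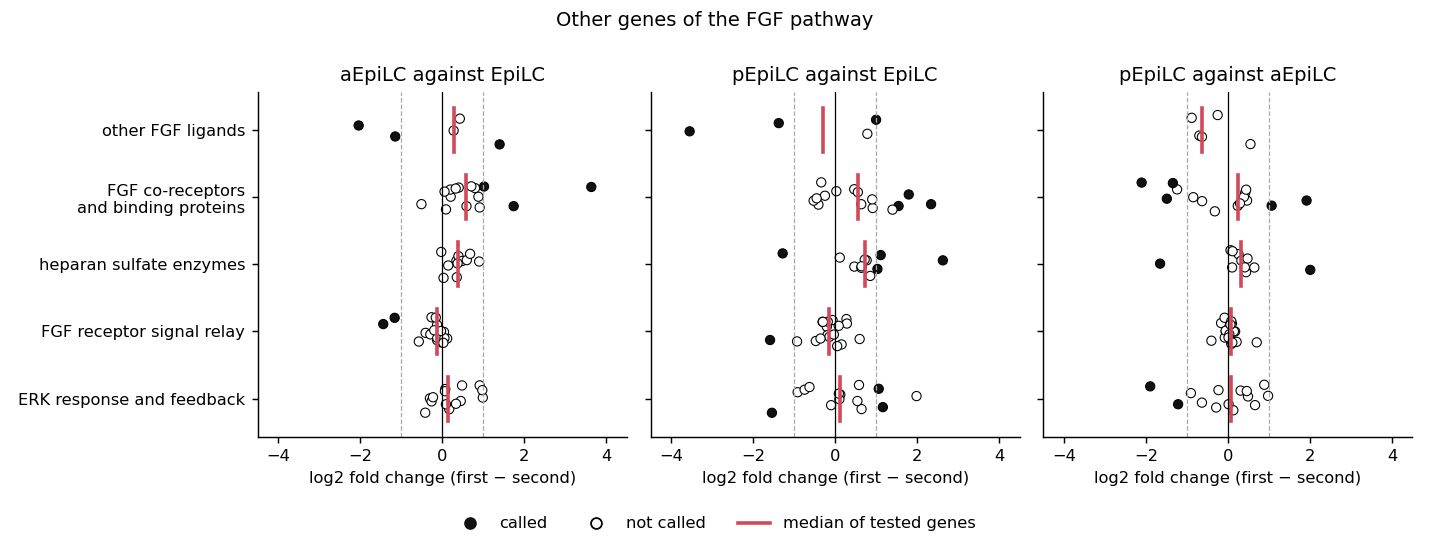
Log2 fold change of each tested gene of 5 pathway lists in each comparison (first state minus second), with called genes filled, a red bar at the median of the list and dashed lines at the fold limit. Points are spread vertically within a list only to keep them apart. Called genes lie on both sides of 0 among co-receptors and heparan sulfate enzymes between pEpiLCs and aEpiLCs, and no gene of the relay is called there.

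For each of the 4 genes called between pEpiLCs and aEpiLCs, the genes with the most similar pattern were found by Pearson's r of log2 CPM over the 9 libraries, as a description only, since the libraries share states. This r compares neither the level nor the size of the change. For Fgf4 they were Dppa4 (r = 0.995), Cbx1 (0.991) and Shkbp1 (0.991). Dppa4, a gene of pluripotent cells, had mean levels of 106, 75.3 and 34.0 CPM in EpiLCs, aEpiLCs and pEpiLCs. For Fgf8 they were Relt (0.991), Ap3b2 (0.988) and Mkx (0.988), of which Ap3b2 had 3.19, 1.80 and 26.01 CPM. For Fgf17 they were Pdha1 (0.986), Npm3 (0.985) and Slc30a6 (0.982), and for Fgfr2 Inava (0.991), Pla2r1 (0.990) and Stmn4 (0.985), of which Stmn4 had 1.18, 13.9 and 0.361 CPM. Pdha1 had 255, 209 and 302 CPM and Inava 27.1, 36.5 and 24.5 CPM, smaller changes than those of Fgf17 and Fgfr2. With TMM factors taken from all genes, 9 of these 12 remained, and Shkbp1, Npm3 and Stmn4 were replaced by Tmem30b, Alad and Mettl27.

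The RefSeq promoter table (GRCm38.p6, windows of 300 bases around each start) held 10 promoters of 6 of the genes. These were Fgf3, Fgf4, Fgf13, Fgfr2, Fgfr3 and Fgfr4, so the promoters of Fgf8, Fgf15, Fgf17 and Fgfr1 were not searched. The letters CTTTGAA, a TCF/LEF-type motif searched on both strands, were in the promoter of Fgf3 and in 5.14% of 32851 promoters. CTTTGAT was in none of the 10, and in 3.73% of all promoters. TATAAA was in 1 promoter of Fgf13 and in 13.6% of all promoters.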

How the data were processed

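RNA from 9 libraries of cultured mouse cells (3 each of EpiLC, aEpiLC and pEpiLC) was sequenced as paired-end reads of 150 bp. Per the submitters' processing notes, the authors used STAR 2.7.9a and RSEM 1.3.1 on GRCm38. The deposited values are expected counts per gene symbol, without normalization. Strandedness and the annotation are not stated in the sources used here. Expected counts were rounded to whole numbers. Positions and exon lengths came from GENCODE on GRCm38, in which 22803 of 23453 symbols matched a single gene. In the deposited table, 0 columns belonged to other samples.

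Each pair of states was fitted on its own 6 libraries in R 4.3.3 with edgeR 4.0.16 (TMM, filterByExpr, glmQLFit and glmQLFTest). Calls required a Benjamini-Hochberg adjusted p under 0.05 and a log2 fold change of 1 or more in size. The F statistic of each gene gave the standard error and 95% interval of its fold change. The CPM scale used TMM factors from the genes that passed the filter over the 9 libraries. Factors from all genes were used at first and replaced after the values had been seen, so that the order of filter and scaling matched that of the comparisons. The replacement changed CPM by at most 1.34%. The fits of the comparisons do not use these factors. Correlations of the deviations of same-numbered libraries were small, between -0.06 and 0.17, and those of other pairs lay between -0.14 and 0.08. Each pEpiLC library correlated best with the same-numbered library of both other states, which did not hold throughout between aEpiLCs and EpiLCs. The main fits did not use pairing. The procedure was tested on simulated data.

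All 10 family members are named. From each other list, called genes whose mean across the 6 libraries compared reached 5 CPM were named, at most 3 in each direction by size of change, and for each member called between pEpiLCs and aEpiLCs the 3 most similar genes over the 9 libraries. Ier3, Gata4, Apoa1, Sox7, Pou5f1, Ctbp2, Gm26793, Fgf14, Fgf21, Fgf22, Fgfbp3, Kl, Klf2, Esrrb and Phlda1 fall outside this rule and were chosen after their values were seen. Some results that this rule names are not reported here. The members and lists were chosen with earlier results of these data known. Alternatives were RLE size factors, total counts only, DESeq2 1.42.0, the likelihood ratio test, no filter, at least 10 counts in every library, all 9 libraries in one fit, a replicate block, no limit on fold change and leaving out each replicate. The longest transcript as length, the factors from all genes, the ligand sum with Fgf5 and the pathway lists without pEpiLC replicate 1 were added after seeing the data.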

Additional observations from a re-analysis of the deposited data

Results flagged for a closer look

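For 4 genes, the change after EpiLC differed between the later states. The change in pEpiLCs minus that in aEpiLCs, which is the direct comparison of pEpiLCs with aEpiLCs in edgeR's quasi-likelihood test, was 8.14 for Fgf8, 3.18 for Fgf17, -3.02 for Fgf4 and -3.27 for Fgfr2 on the log2 scale. Fgf8 and Fgf17 were called higher in pEpiLCs and lower in aEpiLCs than in EpiLCs, and Fgf4 was called lower in both. Fgfr2 was called higher in aEpiLCs and was lower in pEpiLCs by less than the fold limit.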

How the results depend on the processing

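Fgf4, Fgf8, Fgf17 and Fgfr2 were called between pEpiLCs and aEpiLCs under every alternative that tested them, and Fgf8 was not tested there when each library had to hold at least 10 counts. With no limit on fold change, 8 genes in place of 5 passed between pEpiLCs and EpiLCs. Leaving out each replicate gave 4 to 4, 4 to 6 and 5 to 7 called genes for pEpiLCs against aEpiLCs, pEpiLCs against EpiLCs and aEpiLCs against EpiLCs, and differences in the Fgfr1 share of 14.4 to 16.4, 4.23 to 6.15 and -11.1 to -9.19 percentage points.

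Leaving out each replicate in turn gave Fgf3 a log2 fold change of -1.70 to 2.88 against aEpiLCs and -2.81 to 1.77 against EpiLCs in pEpiLCs. For Fgfr1 between pEpiLCs and aEpiLCs the range was -0.19 to 0.11. For Fgfr3 it was -1.08 to 0.043 for pEpiLCs against aEpiLCs, -0.75 to 0.23 for pEpiLCs against EpiLCs and -0.21 to 0.59 for aEpiLCs against EpiLCs.

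The direction of Fgf3 reversed without pEpiLC replicate 1 (-1.70 against aEpiLCs and -2.81 against EpiLCs) and, against EpiLCs, with the replicate block (-0.38). The block left the counts of calls at 4, 5 and 6. Fgfr1 between pEpiLCs and aEpiLCs lay so near 0 that its sign reversed with RLE size factors (0.0033) and DESeq2 (0.0034), and without pEpiLC replicate 2 (0.11) or 3 (0.063) or aEpiLC replicate 1 (0.018) or 3 (0.018). Fgfr3 reversed without aEpiLC replicate 1 (0.043 for pEpiLCs against aEpiLCs and -0.21 for aEpiLCs against EpiLCs) and without pEpiLC replicate 1 (0.23 for pEpiLCs against EpiLCs). With all 9 libraries in one fit, Fgf3 was no longer called between aEpiLCs and EpiLCs (adjusted p = 0.523). The causes of these changes were not tested.

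Depth limits Fgfr3, Fgfr4, Fgf3 in EpiLCs and aEpiLCs, and Fgf8 and Fgf17 in aEpiLCs, all at 2.41 CPM or less. The pEpiLC level of Fgf3 rests on replicate 1. Only 3 libraries per state were measured, and the culture medium and the state cannot be told apart.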
